A study of Drosophila melanogaster with 2 samples.

Results

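The 10 autophagy genes Atg1, Atg2, Atg5, Atg7, Atg8a, Atg9, Atg13, Atg17, ref(2)P and Mitf were chosen by name, out of 13968 protein-coding genes in the annotation, and every Crc-eGFP peak at them was collected. A peak belonged to a gene when its summit lay in the gene body or within 2 kb of it, on the Ensembl annotation of the dm6 genome build. The peaks came from chromatin immunoprecipitation with sequencing (ChIP-seq), with an antibody against GFP, of Drosophila melanogaster embryos of the strain crc-MiMIC-GFP, collected 0 to 24 h after laying from both sexes. In this strain an intronic exon coding for eGFP makes the endogenous crc gene produce a Crc-GFP fusion; Crc is the fly counterpart of the stress factor ATF4. The labels give 2 biological replicates in a single group; a control library was not analysed here, so nothing below compares conditions. No test was made between the 10 genes and others: shares over the 10 genes are described beside the same over all protein-coding genes or all peaks. The 10 genes were chosen with earlier results of these data known, so the intervals below cannot show that their shares differ from those of other genes.

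Autophagy encloses cytoplasm in a double membrane and delivers it to the lysosome for breakdown. A kinase complex around Atg1 starts the process, the lipid transfer protein Atg2 and the membrane protein Atg9 feed the growing membrane, and a ubiquitin-like conjugation system attaches Atg8a to it. The receptor ref(2)P, the fly p62, brings ubiquitinated cargo to Atg8a, and Mitf, the fly TFEB, activates genes of autophagy and the lysosome. In mammals ATF4 induces several autophagy genes under amino acid and endoplasmic reticulum stress. In flies the pathway is best known from the larval fat body. Whole embryos mix all cell types, so strong binding in few cells cannot be told apart from weak binding in many.

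All 10 genes had a pooled candidate, a peak called on both replicates together, as did 76.1% of all protein-coding genes. Of the 10, 6 also had an optimal peak, the term for a pooled candidate that passed the authors' filter on reproducibility (60%, Wilson 95% interval 31.3 to 83.2, counting error only): Atg7, Atg5, Atg2, Atg17, Atg1 and Atg8a. Atg13, Atg9, ref(2)P and Mitf had none. The optimal peaks were exactly the 2420 pooled candidates of highest signal, so an optimal peak and a high pooled signal are not separate results. They also need not rank alike in both libraries: the Atg8a peak passed with ranks 5462 and 982 in replicates 1 and 2. The ref(2)P promoter candidate, with 2225 and 2930, did not pass. Among all protein-coding genes 22.4% had an optimal peak under the same rule. Long genes collect more peaks, and among the 4795 genes between 2833 and 25616 bp long, the range of the 10, the shares were 29.3% with an optimal peak and 88.2% with a candidate. An optimal summit within 500 bp of an annotated start of the gene itself was found at 3 of the 10, Atg2, Atg17 and Atg8a (30%, Wilson 95% interval 10.8 to 60.3), against 11.5% of all protein-coding genes, a share inside that interval. The count was 1, Atg8a, with a limit of 200 bp. In the strongest peaks of a single library it was 5 without replicate 1, where Atg7 and Mitf joined, and 3 without replicate 2, where ref(2)P stood in place of Atg8a. The share of all protein-coding genes was not computed at these other settings.

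The strongest pooled signal, the caller's own score with no stated normalization, had a median of 89.1 over the 10 genes and ran between 33.0 at Atg9 and 159.5 at Atg7. Over the 10623 protein-coding genes with a candidate the median was 40.1, and over the genes of like length it was 45.5. Over the optimal list the signal ran between 63.98 and 1273.8 with a median of 96.9, and 5 of the 8 optimal peaks at the 10 genes were above that median. In all there were 52 pooled candidates at the 10 genes.

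**Figure D1:**
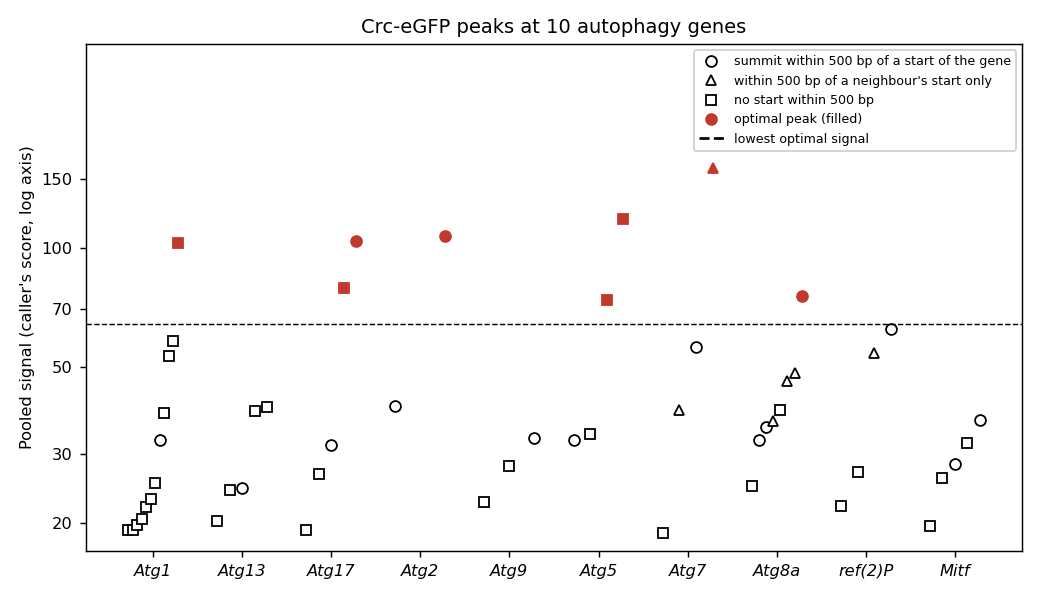
Pooled signal (log axis) of each of the 52 candidate peaks at the 10 genes, 1 point per peak. Filled red points are the 8 optimal peaks, and the dashed line is the lowest optimal signal of 63.98. Circles mark summits within 500 bp of a start of the gene itself, also where a neighbour's start was nearer. Triangles mark summits within 500 bp of a neighbour's start only, and squares those with no protein-coding start that near. The ref(2)P promoter candidate sits just under the line at 62.3.

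The sequences under the promoter peaks, and under the strongest intronic peaks at Atg1 and Atg5, are printed because they are the DNA to which the values below refer. The first 4 are the 300 bases upstream of a transcription start and the last 2 are centred on a summit. All are Release 6 sequence from RefSeq, without bases of any Ensembl exon, read 5' to 3' along the gene, and capitals mark a DRE or GAGA element on either strand. Atg2 is 3L:2774038-2774337 on the forward strand, Atg17 is 3R:5669413-5669712 forward, Atg8a is X:10767307-10767606 reverse, ref(2)P is 2L:19542168-19542467 forward, Atg1 is 3L:12803708-12804007 reverse and Atg5 is X:7324883-7325182 reverse.
Atg2: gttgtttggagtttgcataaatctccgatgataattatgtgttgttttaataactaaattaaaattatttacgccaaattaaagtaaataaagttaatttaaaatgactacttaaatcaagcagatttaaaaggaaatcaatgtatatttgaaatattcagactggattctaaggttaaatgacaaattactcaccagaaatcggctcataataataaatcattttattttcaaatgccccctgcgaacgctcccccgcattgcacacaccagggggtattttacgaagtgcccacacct
Atg17: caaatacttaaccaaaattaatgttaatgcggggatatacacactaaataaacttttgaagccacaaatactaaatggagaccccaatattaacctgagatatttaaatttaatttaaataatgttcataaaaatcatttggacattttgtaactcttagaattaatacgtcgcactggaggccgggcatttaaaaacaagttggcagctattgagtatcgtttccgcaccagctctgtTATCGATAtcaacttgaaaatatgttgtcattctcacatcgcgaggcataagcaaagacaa
Atg8a: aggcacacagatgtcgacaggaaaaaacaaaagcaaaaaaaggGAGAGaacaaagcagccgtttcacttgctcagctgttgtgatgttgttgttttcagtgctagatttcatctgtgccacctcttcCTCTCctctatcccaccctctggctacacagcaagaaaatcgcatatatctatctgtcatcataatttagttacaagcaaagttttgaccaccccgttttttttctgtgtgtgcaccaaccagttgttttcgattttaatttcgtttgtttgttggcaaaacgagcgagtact
ref(2)P: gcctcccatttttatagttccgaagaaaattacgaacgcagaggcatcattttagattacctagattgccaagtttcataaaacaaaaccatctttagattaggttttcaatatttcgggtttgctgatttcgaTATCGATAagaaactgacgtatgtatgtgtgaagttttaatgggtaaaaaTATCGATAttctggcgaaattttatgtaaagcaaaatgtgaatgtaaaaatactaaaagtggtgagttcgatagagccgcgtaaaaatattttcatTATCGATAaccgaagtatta
Atg1: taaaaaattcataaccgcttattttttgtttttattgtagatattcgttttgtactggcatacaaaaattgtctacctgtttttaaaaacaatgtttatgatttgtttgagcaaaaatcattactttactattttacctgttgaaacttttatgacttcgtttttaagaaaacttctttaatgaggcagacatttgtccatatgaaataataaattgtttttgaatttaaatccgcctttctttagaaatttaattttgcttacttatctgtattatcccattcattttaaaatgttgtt
Atg5: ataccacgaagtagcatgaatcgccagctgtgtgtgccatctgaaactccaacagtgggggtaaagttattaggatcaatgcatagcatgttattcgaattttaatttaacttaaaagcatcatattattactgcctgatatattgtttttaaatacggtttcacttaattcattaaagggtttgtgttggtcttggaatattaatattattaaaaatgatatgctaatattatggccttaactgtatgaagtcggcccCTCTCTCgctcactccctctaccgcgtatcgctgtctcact

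The kinase complex that starts autophagy held peaks of different kinds. Atg1 (FBgn0260945, 3L:12784429-12805116, reverse strand), the kinase itself, had its optimal peak in an intron, 1258 bp downstream of the start, at 3L:12803658-12804057. The pooled signal there was 102.8, with 40.4 and rank 1201 in replicate 1 and 63.8 and rank 1020 in replicate 2. Both libraries thus placed it near the same rank. Its promoter, by contrast, had a weak candidate of 32.5 with the summit 13 bp into the gene, and neither replicate had a summit within 100 bp of it. Replicate 2 had a peak of 23.7 at rank 5594, 112 bp from the pooled summit and so just past the matching limit. The Atg1 window held 12 candidates, the most of the 10 genes, but per kb of window Atg8a had more, with 1.07 against 0.486 at Atg1. Further intronic candidates of Atg1 reached 57.9 and 53.1, and the weaker of these also lies inside CG42709, a gene nested in Atg1.

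Atg17 (FBgn0037363, 3R:5669713-5679930, forward strand), the scaffold of the kinase complex and fly counterpart of FIP200, had 2 optimal peaks. The stronger, at 104.4, lay between the divergent starts of Atg17 and Xe7, which are 379 bp apart; the summit was 246 bp upstream of Atg17 and 133 bp upstream of Xe7, so the peak cannot be given to either gene. Replicate 1 had it at 54.6 and rank 694, whereas replicate 2 had no summit within 100 bp. Replicate 2 did have a peak of 50.1 at rank 1576 in the same stretch, 106 bp from the pooled summit and just past the matching limit, at base 161 of the printed sequence. The replicates therefore both had a peak between the starts and differed in its position. A weaker candidate of 31.7 lay 47 bp upstream of the Atg17 start, and the same replicate 2 summit was within 100 bp of it. The other optimal peak, 3056 bp inside Atg17 in an intron, had 79.4, with 36.2 and rank 1481 in replicate 1 and 47.5 and rank 1707 in replicate 2.

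Atg13 (FBgn0261108, 3R:8349815-8352817, forward strand), the regulatory subunit that binds Atg1, had no optimal peak. Its strongest candidates, 39.4 and 38.5, lay downstream of the gene in intergenic DNA, and the candidate in its 5' UTR, 208 bp from the start, had 24.5. That 5' UTR candidate ranked 4913 in replicate 1 and had no counterpart within 100 bp in replicate 2.

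Of the genes that supply membrane, Atg2 had an optimal promoter peak and Atg9 did not. Atg2 (FBgn0044452, 3L:2774338-2780677, forward strand) shares its promoter with CG12093, which starts 331 bp away on the other strand. The optimal summit, at 107.6, was 268 bp upstream of Atg2 and 63 bp upstream of CG12093, so it lay closer to the neighbour. It had 45.3 and rank 960 in replicate 1 and 64.9 and rank 993 in replicate 2, with summits 6 and 1 bp from the pooled one. Of the 7 optimal peaks found in both libraries, this one had the smallest gap in rank. The other candidate at Atg2, 39.7, lay 67 bp upstream of its start and 201 bp from the stronger summit, so the 400 bp peaks overlap and share reads.

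Atg9 (FBgn0034110, 2R:16294400-16297232, forward strand) shares its promoter with CG7747, 270 bp away. Its strongest candidate, 43 bp upstream of the start, had 33.0, the lowest maximum among the 10 genes. It ranked 8246 in replicate 1 and 6190 in replicate 2, so the peak was weak in both.

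**Figure D2:**
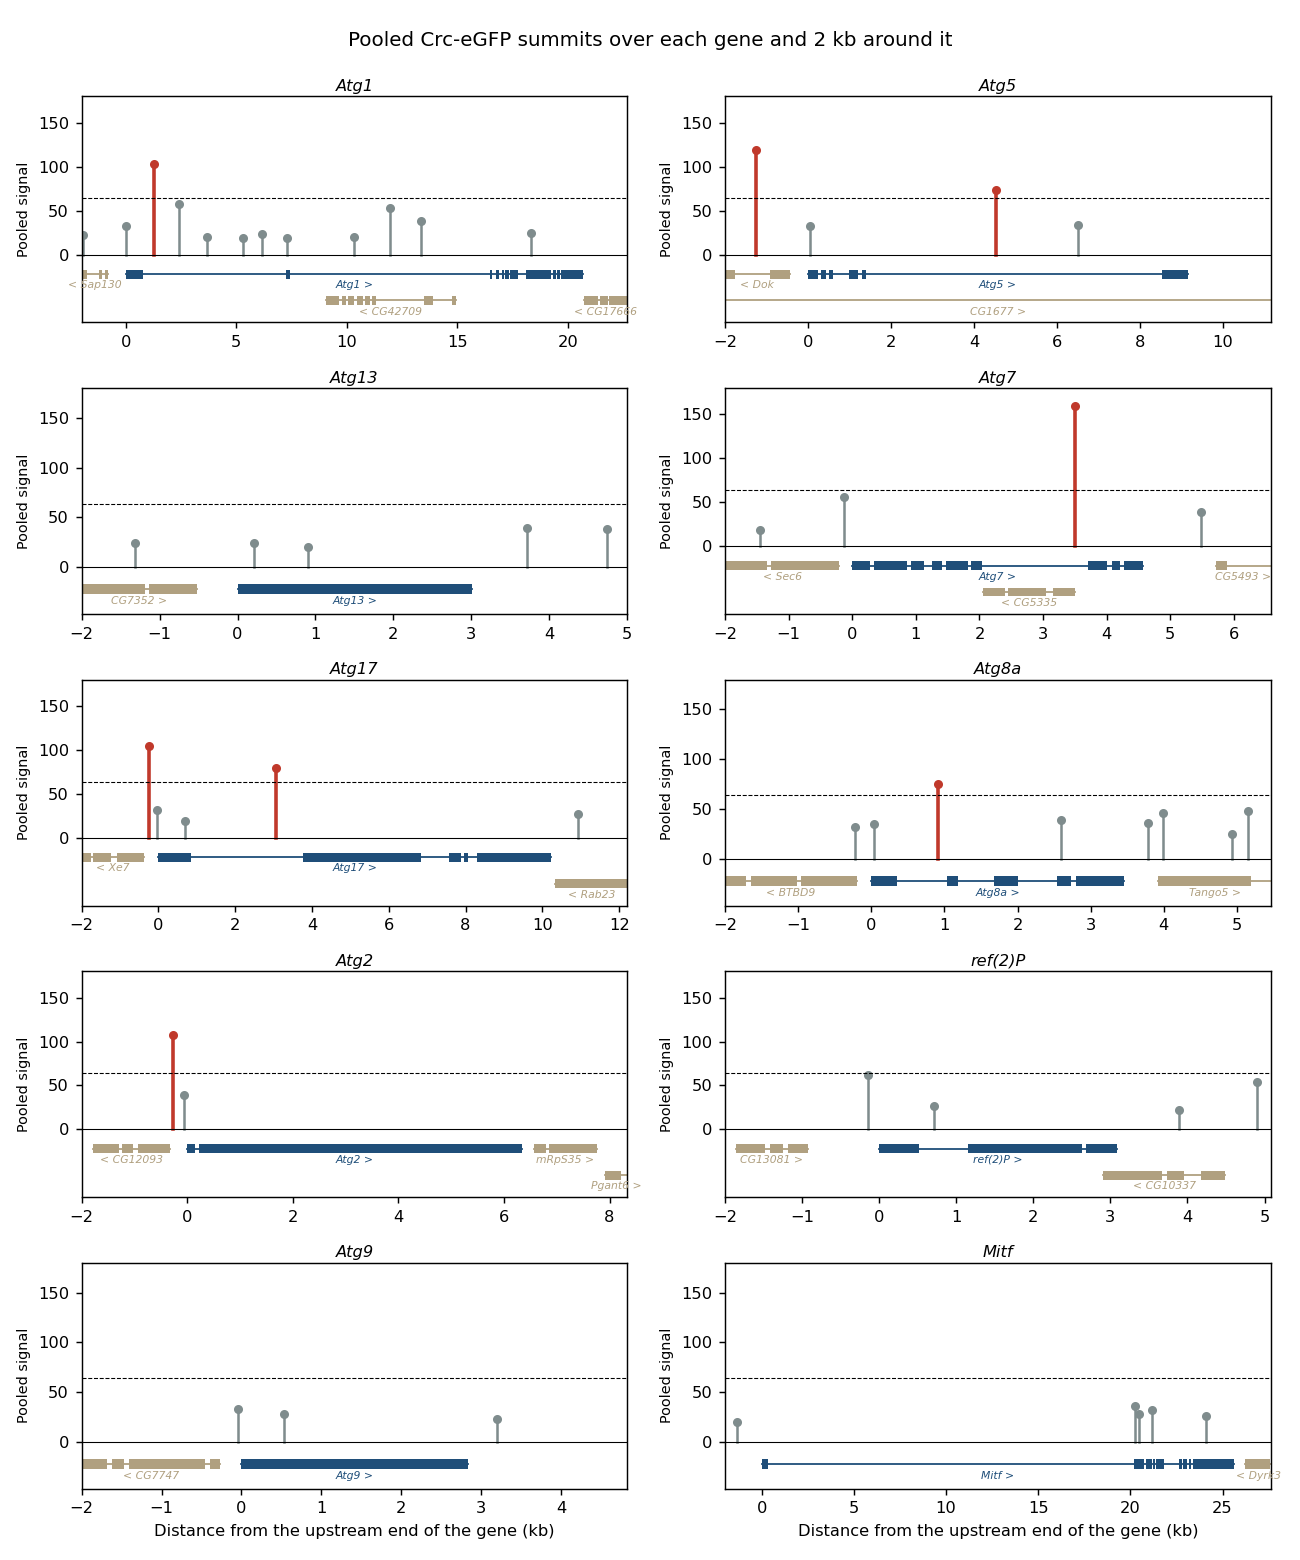
Pooled signal of each candidate summit (stems; red for optimal, grey for others) against the distance in kb from the upstream end of each gene, read along the gene. Blue bars are the gene and brown bars its neighbours, with exons thick and arrowheads for the direction of transcription relative to the gene; the dashed line is 63.98. The optimal peak inside Atg7 stands at the start of the nested gene CG5335, and those of Atg17 and Atg2 stand between divergent starts.

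The highest signals of the 10 lay at the conjugation genes Atg7 and Atg5, and neither summit was within 500 bp of the start of its gene. Atg7 (FBgn0034366, 2R:18620466-18625044, reverse strand), the activating enzyme of the system, had the strongest peak of the 10 at 159.5 and pooled rank 473. Its summit was 3509 bp inside Atg7 and 6 bp upstream of the start of CG5335, which is nested in an Atg7 intron on the other strand. Replicate 1 had it at 64.6 and rank 488, and replicate 2 at 89.8 and rank 550. The promoter that Atg7 shares with Sec6, an exocyst subunit gene that starts 205 bp away, had a candidate of 55.9 below the optimal list. That candidate was strong in replicate 2, with 42.5 and rank 2073, and weak in replicate 1, with 11.8 and rank 22144.

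Atg5 (FBgn0029943, X:7314622-7323770, reverse strand), part of the complex that attaches Atg8a to lipid, had optimal peaks of 118.6 and 73.8. The stronger lay 1263 bp upstream of the start, in an intron of Dok, a gene of an adaptor protein of tyrosine kinase signalling whose start is 444 bp from that of Atg5. It had 35.0 and rank 1592 in replicate 1 and 81.3 and rank 673 in replicate 2. The weaker lay 4529 bp into Atg5, in an intron, with 26.5 and rank 2655 in replicate 1 and 49.6 and rank 1598 in replicate 2. Both summits also lie within CG1677 and the noncoding gene lncRNA:CR44357, as do all 4 candidates in the Atg5 window. The Atg5 promoter had a candidate of 32.6, ranked 13086 in replicate 1 and 10300 in replicate 2.

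Atg8a (FBgn0052672, X:10764878-10768338, reverse strand), the ubiquitin-like protein that marks the autophagic membrane, had its optimal peak at an internal start. The summit was 121 bp upstream of the start at X:10767306, in an intron of the longer transcripts, and had a pooled signal of 75.3. The replicates placed it far apart, at 19.5 and rank 5462 in replicate 1 and 65.4 and rank 982 in replicate 2. At the upstream start, in the 5' UTR, a candidate had 35.1, and a second one of 32.4 lay at the start of BTBD9, which begins 199 bp away. Downstream, 4 of the 8 candidates in the Atg8a window lay in or just upstream of Tango5, the fly gene for the autophagy protein VMP1, and reached 48.0 at most.

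The cargo receptor ref(2)P and the regulator Mitf had no optimal peak. For ref(2)P (FBgn0003231, 2L:19542468-19545548, forward strand) the candidate 139 bp upstream of the start, at 2L:19542129-19542528, had 62.3 and pooled rank 2524, just under the lowest optimal signal of 63.98. Replicate 1 had it at 29.1 and rank 2225, and replicate 2 at 34.7 and rank 2930, so the libraries gave it similar ranks. No other protein-coding gene starts within 500 bp of it. Mitf (FBgn0263112, 4:1198852-1224467, forward strand) had its strongest candidate, 36.6, in a coding exon 64 bp downstream of an internal start. Replicate 2 had that peak at 39.7 and rank 2313, and replicate 1 had none within 100 bp. A weaker candidate of 28.3 lay 199 bp from it, 263 bp downstream of the same start. Replicate 1 had a summit of 16.3 at rank 9306, 3 bp from this weaker candidate. The upstream end of Mitf held a candidate of 19.7, 1353 bp before the start.

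Around the limit of the optimal list, the peaks just inside were the intronic peak of Atg17 at 79.4, Atg8a at 75.3 and the intronic peak of Atg5 at 73.8. Just outside stood ref(2)P at 62.3, followed by an intronic candidate of Atg1 at 57.9 and the Atg7 promoter at 55.9.

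The 8 optimal peaks fell into 3 kinds. Near an own start lay 3, of which those of Atg2 and Atg17 were shared with a divergent neighbour and that of Atg8a was not. At a neighbour's start only lay 1, that inside Atg7. The other 4, at Atg1, Atg5 and Atg17, had no protein-coding start within 500 bp, as was so for 49.4% of all 2420 optimal peaks. By annotation 6 of the 8 summits were intronic (75%) and 2 intergenic (25%), against 48.7% and 39.7% of all optimal peaks. None of the 8 was in an exon, where 9.79% of all optimal summits lay in a 5' UTR and 1.45% in a 3' UTR. Of the 44 candidates below the optimal list, 11 lay in coding exons (25%), 9 in 5' UTRs (20.5%) and 2 in 3' UTRs (4.55%), against 12.4%, 8.04% and 4.65% of the other candidates of the genome. The peaks of the 10 genes came from windows around genes and the others from the whole genome, so these shares are not of like windows.

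Of the 52 candidates at the 10 genes, 25 had a summit within 100 bp in both replicates (48.1%), against 35.6% of all pooled candidates. No interval is given, because the candidates are not independent: 12 came from Atg1 and 8 from Atg8a. Moreover, 5 of the 52 lay within 250 bp of a stronger candidate (9.62%, against 7.07% of all pooled candidates), so that 400 bp peaks there overlap. Another 11 were found in replicate 1 only, 14 in replicate 2 only and 2 in neither. Of the 44 candidates below the optimal list, 18 were found in both (40.9%). The 35.6% is not the like share for these 44, because it includes optimal peaks. It stands for 8683 of 24369 pooled candidates, and 2289 of those 8683 were among the 2420 optimal peaks. Among the 8 optimal peaks 7 were found in both, and 94.6% of all optimal peaks were. The exception was the peak between Atg17 and Xe7, which had a match with a limit of 200 bp, so that all 8 were found in both. With a limit of 50 bp 5 were, since the replicate 1 summits of Atg1 and Atg8a lay 57 and 94 bp from the pooled ones. Of the 25 positions in both libraries, 15 ranked higher in replicate 2 (60%) and 10 in replicate 1, against 49.2% ranked higher in replicate 2 over all 8683 such candidates. Each replicate's list stops at 30000 regions, so a missing weak candidate may lie beyond the end of the list.

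**Figure D3:**
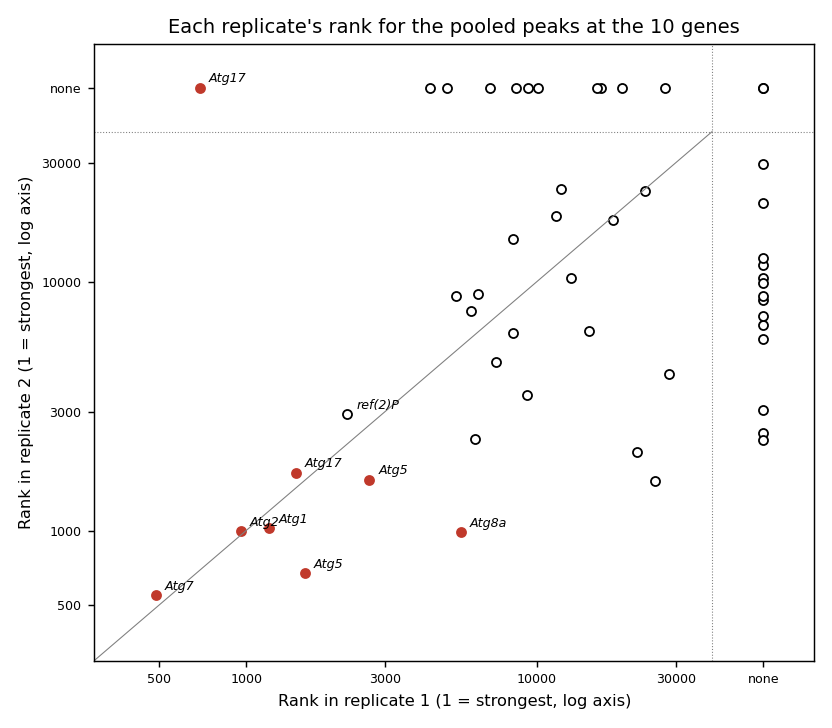
Rank of each of the 52 pooled candidates at the 10 genes in replicate 1 (horizontal) and replicate 2 (vertical), log axes, where 1 is the strongest; points past the dotted lines had no summit within 100 bp in that library. Red points are the 8 optimal peaks. Atg7, Atg2 and Atg1 lie near the diagonal, Atg8a far below it, with rank 5462 in replicate 1 and 982 in replicate 2, and the Atg17 promoter peak has no replicate 2 match.

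The C/EBP-ATF response element through which ATF4 acts (CARE, searched as TGATGNAAC or TGATGNAAT on both strands within 100 bp of a summit) was in 1 of 52 windows (1.92%), that of the Atg1 intronic candidate of 57.9, and in none of the 8 optimal ones. All optimal peaks had it in 1.32% of windows and other candidates in 1.47%, so the share at the 10 genes was near the background. The cAMP response element TGACGTCA was in none of the 52, against 0.455% of all optimal windows. The E-box CACGTG, the core read by Mitf and TFEB, was in 2 of 52 (3.85%), at a weak candidate 1915 bp upstream of Atg1, inside Sap130, and at the 39.4 candidate downstream of Atg13, against 2.40% of all optimal windows. With windows this few, these shares describe the peaks and test nothing.

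The DRE (TATCGATA), named for its place in promoters of DNA replication genes and read by the factor Dref, was in 5 of the 52 windows (9.62%), against 3.55% of all optimal windows and 1.64% of the other candidates. None of the 5 was an optimal peak. The candidates at the 10 genes lay more often near starts: below the optimal list, 38.6% had a protein-coding start within 500 bp. Over all pooled candidates below that list it was 25.3%, so the DRE shares are not of like places. The DREs lay at promoter candidates of ref(2)P, of Atg17 (31.7, 47 bp from the start), of both summits at the Atg8a and BTBD9 promoter, and at a weak intronic candidate of Atg1. The 300 bases upstream of ref(2)P hold 3 DREs, starting at bases 135, 185 and 281 of the printed sequence, and the pooled summit is base 162, between the first and the second. Across 19630 protein-coding starts, 7.50% had a DRE in the 300 bases upstream and 15 (0.0764%) had 3 or more. The number 3 is that of ref(2)P itself, so this share describes 1 promoter, and a link to Crc binding was not tested. Upstream of Atg17 the DRE starts at base 240, whereas the stronger pooled summit is base 55. Motif 1 (GGTCACACT), bound by M1BP, was in 1 window (1.92%), at the BTBD9 start, against 1.45% of all optimal windows and 0.834% of the other candidates. GAGAG, part of the GAGA factor motif, was in 10 of 52, 19.2%, against 22.6% of all optimal windows. Different elements did not overlap in any of the 52 windows. The 201 bp windows around the 8 optimal summits had a median GC content of 30.8%, against 35.8% over all optimal windows, and that of the Atg1 peak was the lowest at 25.9%.

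Beyond the 10 genes, 28 other autophagy genes, also listed with earlier results of these data known, were read the same way, grouped by role. Of these 24 had a candidate and 10 an optimal peak in the window (35.7%, Wilson 95% interval 20.7 to 54.2), against 22.4% of all protein-coding genes and 21.1% of those between 593 and 15608 bp long, the range of the 28. The 10 became 6 when the window was the gene body and 500 bp, and 4 in the stronger 1210 optimal peaks. For these settings too the share of all genes was not computed. Of the 28, 5 had an optimal summit within 500 bp of their own start (17.9%, interval 7.88 to 35.6), against 11.5%. Their median strongest signal was 55.8 where a candidate existed.

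Of the 6 genes for the lipid kinase that makes PI3P and for its partners and regulators, 4 had an optimal peak. These were Rubicon, Pi3K59F (the fly Vps34), Vps15 and Uvrag, and not Atg6 (43.2) or Atg14 (20.6). The 6 are not all subunits of 1 complex. Only that of Vps15 lay at its own start, 47 bp upstream, with a pooled signal of 83.5. Replicate 2 had it at 48.4 and rank 1663, and replicate 1 had a summit of rank 1599 155 bp away, past the 100 bp limit. Rubicon, whose mammalian counterpart inhibits autophagy, had an intronic peak of 125.3, 542 bp into the gene, ranked 850 in replicate 1 and 851 in replicate 2. Its other peak, 191.3, lay at the start of the carbonic anhydrase gene CAH3. The Pi3K59F peak, 84.4, was 202 bp from the start of apt, and the Uvrag peak, 81.6, was in the 5' UTR of CG31729.

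Among genes of membrane supply, Atg18a, a PI3P-binding protein, had an optimal peak of 83.8 in its 5' UTR, 63 bp upstream of one of its starts and 261 bp from that of ERR, a nuclear receptor gene. Atg18b (38.9) and Tango5 (48.0) had none. Of the other 7 conjugation genes, Atg12 alone had an optimal peak, 103.9, and that lay 463 bp from a start of RhoGAP68F. Atg3 (57.1), Atg16 (53.5), Atg4b (31.8) and Atg4a (26.0) stayed below the optimal list, and Atg8b and Atg10 had no pooled candidate.

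Of the SNARE and tethering genes for fusion with the lysosome, Syx17 and Snap29, whose products pair in fusion, had optimal promoter peaks of 68.5 and 70.6. The Syx17 summit was 177 bp upstream of its start, and the gene's window also held a peak of 97.2 at TP53INP. The Snap29 summit lay 108 bp upstream of Snap29 and 130 bp upstream of its divergent neighbour CG5554. Vamp7 (45.8), Epg5 (55.2) and Plekhm1 (56.4) had candidates below the list. Among genes of selective autophagy, bchs, which encodes a large scaffold for protein aggregates, had an optimal peak of 124.1, 442 bp into the gene in an intron, ranked 712 in replicate 1 and 772 in replicate 2. In the same group park had a candidate of 29.3 and Pink1 none. No gene of the 3 for lysosomal proteins (Lamp1, cathD and Trpml) had an optimal peak. Atg101, a further subunit of the kinase complex, had one of 66.3 in an intron of S6KL, 372 bp upstream of a start of that gene.

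**Figure D4:**
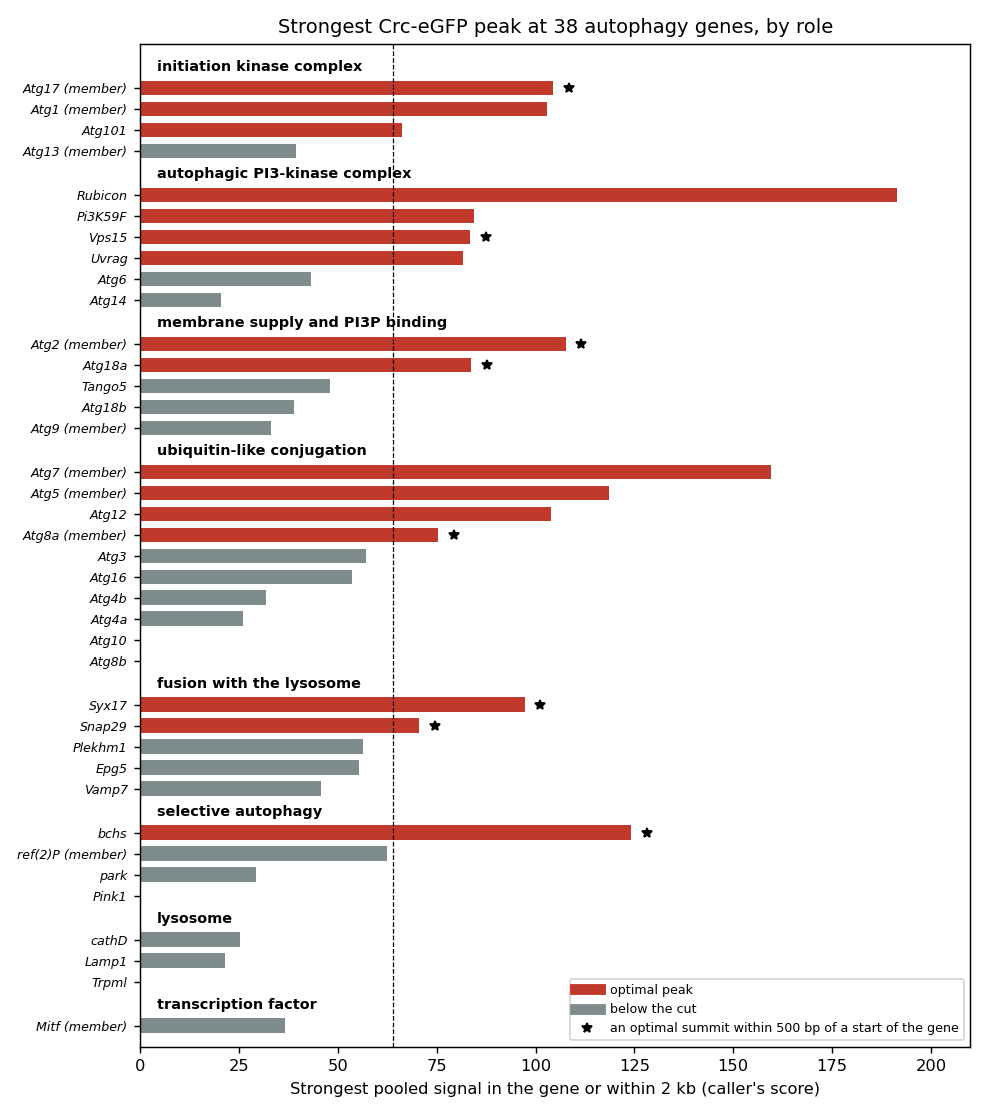
Strongest pooled signal in the gene or within 2 kb for the 10 members and the 28 other autophagy genes, grouped by role. Red bars passed the authors' filter, grey bars did not, stars mark genes with an optimal summit within 500 bp of an own start, and the dashed line is 63.98; genes with no bar had no pooled candidate. Rubicon (191.3), Atg7 (159.5) and bchs (124.1) have the longest bars, and those of Rubicon and Atg7 come from peaks at a neighbour's start.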

How the data were processed

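The deposited narrowPeak lists on dm6 were used: candidates of each replicate (30000 each), the pooled candidates (24369) and 2420 optimal peaks, per the file listings. Column 7 is a signal value assigned per peak by the authors' caller, of unstated normalization, and the deposited −log10 q value only broke ties in rank. The aligner and the caller were not given in the sources used here, nor was the number of reads. The dm3 lists were not used.

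Summits were the authors' start plus offset, written 1-based. Genes and starts were those of Ensembl release 115 (BDGP6), and sequence was the RefSeq copy of Release 6; all peaks and genes lay within its chromosome lengths. Of 38 listed symbols, 2 were found by RefSeq synonym. Named genes were the 10 members, listed genes with an optimal peak, and genes starting within 500 bp of a described summit or a member's start; other genes of the lists are given as values. The members and lists were chosen with earlier results of these data known. The labels call the replicates biological and say no more of their origin. Counting steps were tested on simulated data. Alternatives changed the window, start limit, matching limit, peak threshold and element window, or left out a replicate; the backgrounds of like length were added after the data were seen. Python 3.11.15, numpy 2.4.6, pandas 2.3.3 and scipy 1.17.1 were used.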

Additional observations from a re-analysis of the deposited data

How the results depend on the processing

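The number of the 10 genes with an optimal peak was between 5 and 7 under all alternatives tried: 7 with a window of 5 kb, 5 in the stronger 1210 optimal peaks, where Atg8a left, and 6 to 7 from the 2420 strongest candidates of a single library. Mitf joined without replicate 1, and without replicate 2 ref(2)P joined and Atg8a left. All 10 genes kept a candidate throughout. The number with an optimal summit near an own start was less stable: 3 as reported, 1 (Atg8a) within 200 bp, and 3 to 5 with a replicate left out, with Atg7 and Mitf added without replicate 1, and ref(2)P in place of Atg8a without replicate 2. Of the 28 other genes 10 had an optimal peak, against 6 when the window was the gene body and 500 bp, 15 with a window of 5 kb, and 4 in the stronger optimal peaks; with a replicate left out the number was 10 to 11. The median strongest signal was 32.1 to 57.0 in the single libraries, against 89.1 pooled; no normalization between these lists is stated. Sequence elements of any kind were in 18 of 52 windows (34.6%, against 29.8% of all optimal windows and 27.5% of other candidates), and in 8 within 50 bp of the summit. Positions found in both libraries numbered between 17 and 33 as the limit went from 50 to 200 bp, and among the 8 optimal peaks between 5 and 8. Among genes of the length of the 10, 29.3% had an optimal peak and 88.2% a candidate, against 22.4% and 76.1% of all genes; over the lengths of the 28 it was 21.1% with an optimal peak. These shares are for the 2 kb window and the full pooled lists. They were not computed for the other windows, start limits or lists. The counts under those settings therefore have no background and do not set the listed genes apart from others. No paired analysis was possible because there is 1 group and no test. Read depth is unknown, so the depth behind each peak cannot be given.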
